A study of Homo sapiens with 6 samples.

Results

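The 10 protein-coding genes described here are induced in low oxygen but are less often studied than the glycolytic and angiogenic targets: ANKRD37, SPAG4, TMEM45A, FUT11, WSB1, ZNF395, PPFIA4, RAB20, FAM162A and DEPP1. They were chosen because their messenger RNA was higher in hypoxia in these same libraries, so their difference between the groups is given as a description without a test. The 10 genes are among 26425 genes with values, and their 70 transcripts are among 165956 in the deposited table. RNA was sequenced from SUM1315, an established triple-negative breast cancer cell line (genotype labelled WT), grown in medium with serum, insulin and EGF, and kept for 24 h at 21% oxygen (3 normoxic libraries) or in a closed chamber holding 1% oxygen (3 hypoxic libraries). A single cell line was used, and nothing in the labels tells if the 3 replicates of a group came from different cultures; every p-value here is therefore set against library-to-library spread, which could be purely technical.

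Values are RPKM, read counts scaled by transcript length and library size, summed over the transcripts of a gene. The size of the smallest value steps gave depths from 50.4 to 50.9 M reads for normoxia and from 43.9 to 50.7 M for hypoxia. The test covered the 11889 genes exceeding 1 RPKM in 3 or more libraries, of which 12.4% were raised and 24.4% lowered in hypoxia (limma, adjusted p under 0.05), with a median log2 fold change of -0.085. The split depends on scaling: 1479 genes were raised and 2900 lowered, and with median-of-ratios scaling 2022 and 1421. The 7 markers of mammary epithelium (among them EPCAM, KRT8, KRT18 and CDH1) were near 0, summing to at most 0.253 RPKM in any library, whereas the mesenchymal filament gene VIM stood at 4741 to 4901 RPKM in normoxia and 6307 to 7439 in hypoxia. The other mesenchymal markers were weak and not called: CDH2 stood at 2.58 to 3.41 RPKM in normoxia and 1.80 to 2.72 in hypoxia, and FN1 had means of 1.44 and 1.38. ESR1 reached at most 0.209 RPKM and ERBB2 20.2 to 23.7. Summed leukocyte markers reached 0.0446 and summed endothelial markers 0.166 RPKM at most.

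In cells with enough oxygen, prolyl hydroxylases mark the alpha subunits of the hypoxia-inducible factors (HIF) for the ubiquitin ligase that contains VHL, and the subunits are destroyed. In low oxygen the subunits persist, pair with ARNT and bind hypoxia response elements, whose core reads ACGTG or GCGTG. The 10 genes sit at different ends of this response. ANKRD37, SPAG4 and ZNF395 encode an ankyrin repeat protein, a SUN-domain protein of the nuclear envelope and a zinc finger transcription factor. WSB1 is a substrate receptor of a SOCS-box ubiquitin ligase that has been reported to act on VHL itself. FUT11, TMEM45A, RAB20 and PPFIA4 encode a fucosyltransferase family enzyme of the secretory pathway, a multipass membrane protein, a small GTPase of endosomes and phagosomes, and a liprin scaffold of cell contacts and synapses. FAM162A is a mitochondrial protein linked to cell death, and DEPP1 an autophagy-associated protein known as a FOXO target.

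Promoter sequence in the RefSeq table (GRCh38.p14) was matched for 6 of the 10 genes: ANKRD37, TMEM45A, WSB1, PPFIA4, FAM162A and DEPP1. The windows run from 250 bases before to 50 bases after the annotated start, and both strands were searched for ACGTG and GCGTG. The 250 bases before the start are printed for the 4 genes with a match and for DEPP1, the member with the largest fold change and no match, 5′ to 3′ on the strand of the gene, with matches in capitals. They lie at chr4:185396591-185396840 (plus strand) for ANKRD37, chr17:27293864-27294113 (plus) for WSB1, chr1:203026241-203026490 (plus) for PPFIA4, chr3:122383932-122384181 (plus) for FAM162A and chr10:44978810-44979059 (minus) for DEPP1.
ANKRD37: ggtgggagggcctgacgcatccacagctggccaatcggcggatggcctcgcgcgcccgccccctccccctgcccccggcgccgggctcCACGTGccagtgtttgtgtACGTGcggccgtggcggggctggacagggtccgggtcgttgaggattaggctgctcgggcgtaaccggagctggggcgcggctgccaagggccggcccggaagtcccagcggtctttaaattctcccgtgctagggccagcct
WSB1: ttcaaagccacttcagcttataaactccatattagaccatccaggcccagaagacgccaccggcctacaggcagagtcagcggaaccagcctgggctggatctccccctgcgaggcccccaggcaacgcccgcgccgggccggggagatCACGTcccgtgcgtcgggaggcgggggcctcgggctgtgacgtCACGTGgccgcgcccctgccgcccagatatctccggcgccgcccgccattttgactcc
PPFIA4: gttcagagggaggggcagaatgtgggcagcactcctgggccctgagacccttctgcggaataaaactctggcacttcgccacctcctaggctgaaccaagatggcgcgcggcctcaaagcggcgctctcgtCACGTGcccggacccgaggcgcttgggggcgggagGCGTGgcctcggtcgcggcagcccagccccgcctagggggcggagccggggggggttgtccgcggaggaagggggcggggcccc
FAM162A: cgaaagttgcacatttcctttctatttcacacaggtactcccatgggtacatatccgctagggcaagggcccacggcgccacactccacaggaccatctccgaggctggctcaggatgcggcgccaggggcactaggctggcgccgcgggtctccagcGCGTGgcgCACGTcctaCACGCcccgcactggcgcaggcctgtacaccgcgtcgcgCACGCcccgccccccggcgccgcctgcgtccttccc
DEPP1: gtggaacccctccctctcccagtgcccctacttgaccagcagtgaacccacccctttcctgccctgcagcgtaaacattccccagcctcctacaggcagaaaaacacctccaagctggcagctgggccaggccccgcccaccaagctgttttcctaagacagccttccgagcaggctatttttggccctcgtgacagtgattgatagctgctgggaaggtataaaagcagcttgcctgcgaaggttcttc

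The ANKRD37 window held the palindrome CACGTG, which contains ACGTG on each strand (matches at -162 and -161, with the last base before the start counted as -1) and a separate ACGTG at -143. WSB1 likewise held a CACGTG (matches at -58 and -57) and a single match at -101. In PPFIA4 a CACGTG (-119 and -118) was followed by GCGTG at -84. FAM162A had 4 matches outside any CACGTG, at -92, -84, -75 and -36. No match lay in the TMEM45A or DEPP1 window, which says only that these letters are not there. A match was thus present in 4 of 6 member windows (66.7%), beside 48.4% of all 35116 promoter windows in the table and 62.3% of the 13645 windows of tested genes. Leaving out matches inside CACGTG gave the same 4 members, beside 45.4% of all windows and 58.8% of those of tested genes. With so few windows and a motif this common, the members' share cannot be set apart from that of other genes.

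All 10 genes were higher in each hypoxic library than in any normoxic one, a pattern their choice fixed. Of all tested genes, 16.4% had that pattern and 51.9% had groups that did not overlap in either direction. The median of their log2 fold changes, on the log2(RPKM + 1) scale, was 1.89. The ratio of group means reached at least 2 for 8 of them, beside 1.73% of tested genes. In bulk RNA, a change in the number of expressing cells and a change in RNA per cell cannot be told apart.

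**Figure D1:**
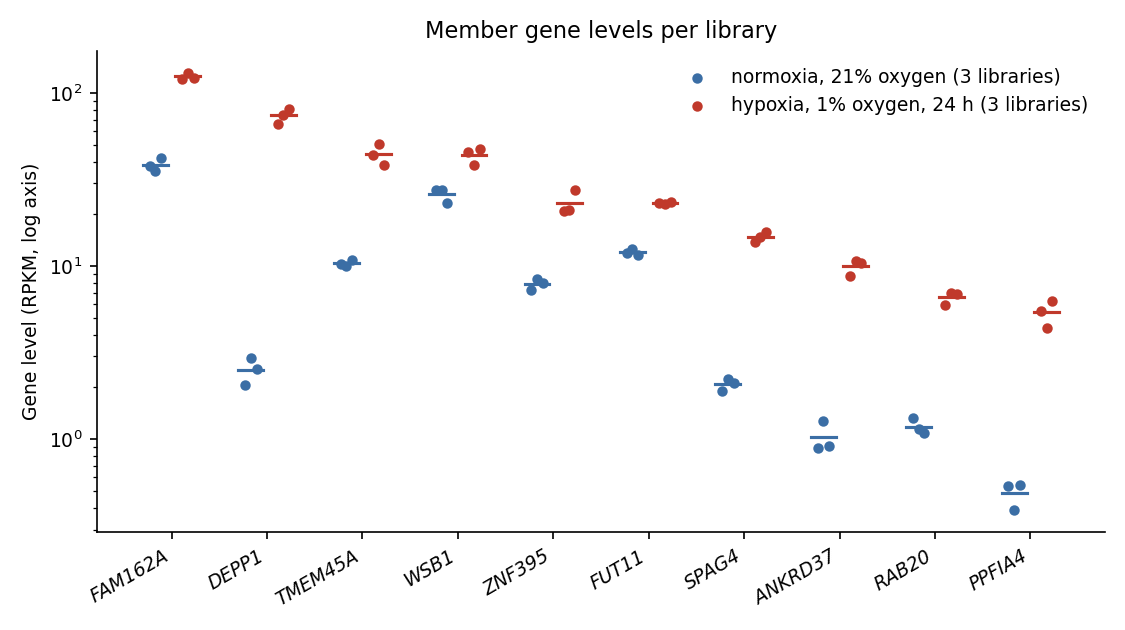
Level of each of the 10 genes in each library (points, RPKM on a log axis) with the group mean (bar); blue, normoxia, and red, hypoxia, 3 libraries each. The red points lie above the blue points in every gene, with the widest gap in DEPP1 and the narrowest in WSB1.

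DEPP1 (ENSG00000165507, chromosome 10, 44970981 to 44978810, GRCh38) had the largest ratio between the groups. Its normoxic libraries stood at 2.05, 2.93 and 2.55 RPKM and its hypoxic libraries at 66.5, 74.4 and 81.1. The means of 2.51 ± 0.444 and 74.0 ± 7.33 RPKM (SD, n = 3 each) differ by a ratio of 29.5, and its log2 fold change of 4.42 was the second largest of the 11889 tested genes. DEPP1 was thus among the weaker members in normoxia and the second highest in hypoxia, on 221 to 316 estimated reads per normoxic and 7132 to 7778 per hypoxic library. FAM162A (chromosome 3, 122384176 to 122412334), the other member tied to organelle turnover and cell death, was already the highest in normoxia. It stood at 37.8, 35.4 and 41.8 RPKM in normoxia and 120, 131 and 122 in hypoxia, a ratio of means of 3.25. Its hypoxic libraries lay close together, with a coefficient of variation (SD over mean) of 4.52%.

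Among the nuclear proteins, ANKRD37 (chromosome 4, 185396021 to 185400628) was at 0.889, 1.27 and 0.918 RPKM in normoxia and 8.73, 10.7 and 10.4 in hypoxia. Only 1 normoxic library exceeded the limit of 1 RPKM, so the gene passed the filter through its hypoxic values. The ratio of means was 9.71, resting on 37 to 59 estimated reads per normoxic library. SPAG4 (chromosome 20, 35615892 to 35621049), better known from spermatids, stood at 1.90, 2.21 and 2.10 RPKM in normoxia and 13.8, 14.8 and 15.6 in hypoxia (ratio 7.11). ZNF395 (chromosome 8, 28345585 to 28402701) was at 7.29, 8.43 and 7.97 RPKM and at 20.8, 21.1 and 27.5 (ratio 2.93). Hypoxia replicate 3 stood apart from the other hypoxic libraries for ZNF395 and the gene's hypoxic coefficient of variation was 16.3%. In hypoxia its main transcript ZNF395-201 was at 12.2, 14.7 and 13.6 RPKM and the shorter ZNF395-210 at 4.43, 2.65 and 7.99. Estimated reads of the gene were 3623 to 3927 per hypoxic library, at depths that differ.

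Of the membrane and vesicle proteins, TMEM45A (chromosome 3, 100492619 to 100577444) was at 10.2, 10.0 and 10.8 RPKM in normoxia and 43.8, 50.5 and 38.1 in hypoxia, a ratio of 4.27. Its normoxic spread was narrow (coefficient of variation 3.88%) and its hypoxic spread wider (14.0%). FUT11 (chromosome 10, 73772291 to 73780251) stood at 11.95, 12.45 and 11.57 RPKM in normoxia and 23.0, 22.7 and 23.5 in hypoxia. That ratio of 1.92 was among the smallest of the 10, yet FUT11 was the most even, with coefficients of variation of 3.71% and 1.59%.

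RAB20 (chromosome 13, 110523066 to 110561733) was at 1.32, 1.15 and 1.08 RPKM in normoxia and 5.96, 7.001 and 6.91 in hypoxia, a ratio of 5.61. PPFIA4 (chromosome 1, 203026498 to 203078740) was the weakest member in both groups, at 0.535, 0.388 and 0.543 RPKM in normoxia and 5.51, 4.40 and 6.26 in hypoxia. No normoxic library exceeded 1 RPKM for PPFIA4, and the ratio of 11.03 rests on 70 to 99 estimated reads per normoxic and 768 to 987 per hypoxic library. The added 1 in the logarithm compresses such weak genes: with 0.1 in its place, the log2 fold change of PPFIA4 went from 2.09 to 3.22 and that of ANKRD37 from 2.44 to 3.17, while FAM162A moved only from 1.68 to 1.70.

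WSB1 (chromosome 17, 27294076 to 27315926), the ubiquitin ligase subunit, had the smallest ratio, 1.69. It stood at 27.5, 27.3 and 23.0 RPKM in normoxia and 45.5, 38.5 and 47.7 in hypoxia. By log2 fold change, 0.74 for WSB1 and 0.89 for FUT11, these genes ranked 207 and 136 among the tested genes, whereas the other 8 ranked between 2 and 51.

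**Figure D2:**
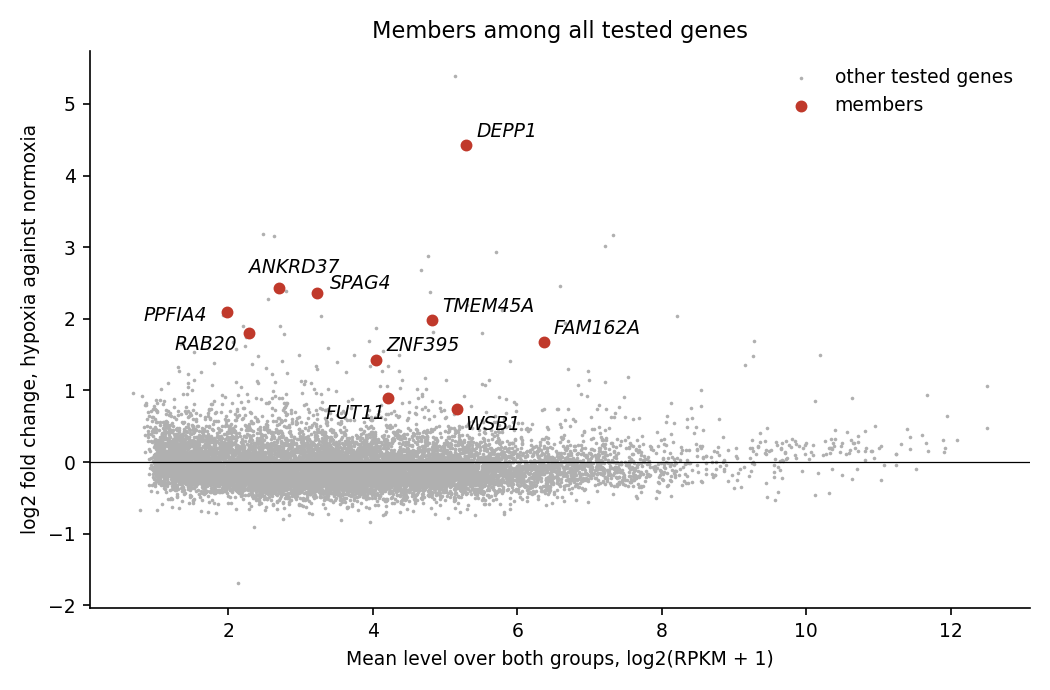
Log2 fold change of hypoxia against normoxia (vertical axis) against the mean level over both groups in log2(RPKM + 1) (horizontal axis) for the 11889 tested genes (grey) and the 10 members (red). The members span weak genes such as PPFIA4 to strong ones such as FAM162A and lie above the bulk of genes at their level.

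The order of the members per length differed between the groups. In normoxia it ran FAM162A, WSB1, FUT11, TMEM45A, ZNF395, DEPP1, SPAG4, RAB20, ANKRD37 and PPFIA4, and neighbours in that order overlapped in range for DEPP1 with SPAG4 and RAB20 with ANKRD37. In hypoxia FAM162A was followed by DEPP1, TMEM45A, WSB1, ZNF395, FUT11, SPAG4, ANKRD37, RAB20 and PPFIA4. There the ranges overlapped for TMEM45A with WSB1 (means 44.1 and 43.9 RPKM), ZNF395 with FUT11 (means 23.1 and 23.1) and RAB20 with PPFIA4 (6.62 and 5.39). The median coefficient of variation of the members was 9.19% in normoxia and 10.3% in hypoxia, beside 4.75% and 8.80% over all tested genes. Levels were not matched in this comparison. The widest normoxic spreads were those of ANKRD37 (20.5%), PPFIA4 (17.9%) and DEPP1 (17.7%), all weak in normoxia.

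Gene sums hide which annotated transcripts carried the values. Shares of a gene's RPKM are given per transcript. The deposited values include fractions of a read, and how reads were divided between overlapping transcripts is not given in the sources used here. RAB20 has 1 listed transcript, and DEPP1-201 held at least 99.8% of DEPP1 in every library. In FAM162A the coding transcripts FAM162A-202 (47.3% ± 3.37 and 49.0% ± 1.59 in normoxia and hypoxia) and FAM162A-201 (45.9% ± 3.52 and 46.1% ± 1.48) carried nearly equal parts. Their ratios of means were also alike, 3.36 and 3.26. FUT11-201, the coding transcript of 3 exons, kept 78.4% ± 3.09 and 77.6% ± 3.91, and ZNF395-201 58.1% ± 4.89 and 59.4% ± 10.2.

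TMEM45A differed in its minor coding transcript. TMEM45A-202 took 6.54% to 10.5% of the gene in normoxia and 14.6% to 16.9% in hypoxia, ranges that do not overlap. The main transcript TMEM45A-201 took 80.2% ± 3.64 and 76.1% ± 1.59. By level, TMEM45A-202 was at 0.670, 0.983 and 1.13 RPKM and at 7.38, 7.35 and 6.004.

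ANKRD37 was more strongly concentrated in hypoxia. The transcript ANKRD37-201, which has 5 exons and 474 coding bases, was at 0.275, 0.633 and 0.217 RPKM in normoxia and 7.21, 9.28 and 8.30 in hypoxia. It held 23.7% to 50.01% of the gene in normoxia and 79.7% to 86.8% in hypoxia. The noncoding ANKRD37-203 overlapped between groups, at 0.0928, 0.133 and 0.654 RPKM against 0.545, 0.453 and 0.668. Normoxic shares of ANKRD37 rest on 12 to 37 estimated reads of the main transcript per library. GENCODE places the first base of ANKRD37-201 at -357 relative to the RefSeq start, so the printed sequence lies inside that transcript model.

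SPAG4 was carried mostly by transcripts annotated as retaining an intron, which have no annotated coding region. Together they held 75.7% ± 18.5 of its RPKM in normoxia and 90.7% ± 1.73 in hypoxia. Over the 6356 tested genes with both a retained-intron and a coding transcript, the median share was 2.07% and 2.25%. The coding transcript SPAG4-201 (12 exons, 1311 coding bases) was at 0.222, 0.923 and 0.149 RPKM in normoxia and 1.53, 1.18 and 1.20 in hypoxia, without overlap. SPAG4-207, a model of 687 bases, was at 0.410, 0.00554 and 0.806 RPKM against 6.37, 8.16 and 8.88. The leading SPAG4 transcript was SPAG4-205 in normoxia and SPAG4-207 in hypoxia. Counting coding transcripts alone, the log2 fold change of SPAG4 was 0.73 rather than 2.36, a value that the added 1 compresses at so low a level. The ratio of means of SPAG4-201 was 3.02, beside 7.11 for the gene. In RPKM, most of the gene's difference sits on models with intron sequence.

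WSB1 was likewise carried mostly by retained-intron models, with 69.1% ± 7.98 of RPKM in normoxia and 68.7% ± 3.51 in hypoxia, a difference smaller than the spread between libraries. The short WSB1-217 (544 bases) led by RPKM, at 11.5, 10.1 and 7.67 against 15.9, 14.7 and 23.9. By estimated reads, which weight long transcripts more, WSB1-204 (4187 bases) led with 53.9% and 46.8% of the gene. The coding WSB1-202 (825 coding bases) stood at 4.10, 3.22 and 5.51 RPKM in normoxia and 9.49, 5.54 and 8.51 in hypoxia, so the highest normoxic and the lowest hypoxic library nearly met.

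PPFIA4 was spread over several models that start at different points. PPFIA4-202 (33 exons) was at 0.115, 0.148 and 0.112 RPKM in normoxia and 1.24, 0.928 and 1.26 in hypoxia. The shorter coding PPFIA4-210 was at 0.0671, 0.0321 and 0.0793 against 1.08, 0.868 and 1.32, and the retained-intron PPFIA4-205 at 0.102, 0.0137 and 0.107 against 1.40, 1.12 and 1.53. PPFIA4-202 led in normoxia and PPFIA4-205 in hypoxia by RPKM, while by estimated reads PPFIA4-202 led in both. These models begin 7993, 24749 and 36468 bases after the RefSeq start whose upstream sequence is printed. PPFIA4-203, which begins 7 bases after that start, held 4.39% of PPFIA4 RPKM in normoxia and 2.27% in hypoxia. With coding transcripts alone the log2 fold change of PPFIA4 was 1.53. Coding transcripts held 60.9% ± 17.8 of its RPKM in normoxia and 51.5% ± 0.379 in hypoxia. Their weaker sum is compressed more by the added 1 than the gene's, whose log2 fold change was 2.09.

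**Figure D3:**
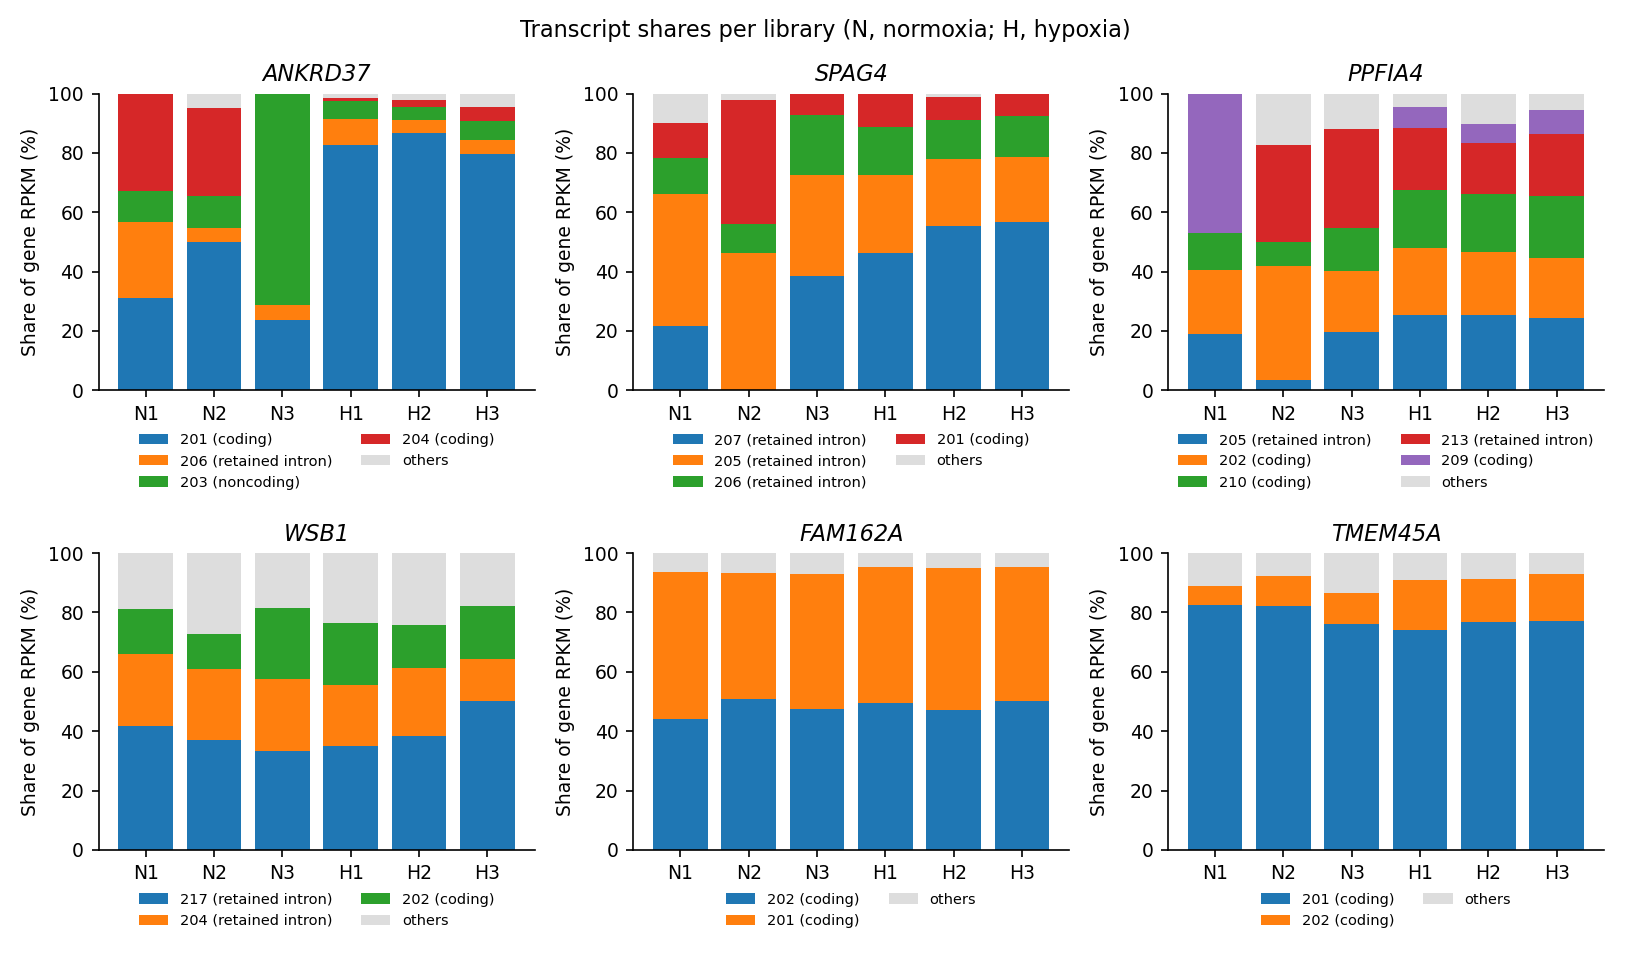
Share of the gene's RPKM (percent, vertical axis) held by each transcript with at least 10% of the gene in either group, in each normoxic (N1 to N3) and hypoxic (H1 to H3) library, for 6 members; grey, all other transcripts. ANKRD37-201 fills 79.7% to 86.8% of the hypoxic bars, while the normoxic bars of ANKRD37, SPAG4 and PPFIA4 differ widely between libraries.

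The tested genes whose pattern was most like each member were sought by the root mean square difference of log2(RPKM + 1) over the 6 libraries, with each gene centred on its normoxic mean. This likeness follows from the difference between the groups and is a description. The added 1 compresses weak genes, so a small difference on this scale does not mean a like ratio of means. The nearest gene was the mitophagy receptor BNIP3 for ANKRD37 (difference 0.119), the neuronal pentraxin NPTX1 for SPAG4 (0.0734) and the glycolytic kinase PGK1 for TMEM45A (0.129). FUT11 was nearest to the clock repressor BHLHE41 (0.0281), WSB1 to CCDC9B (0.0193), ZNF395 to the exonuclease ISG20 (0.0788) and PPFIA4 to DPYSL4 (0.0788). RAB20 was nearest to the collagen prolyl hydroxylase subunit P4HA2 (0.0723) and FAM162A to the glycogen-targeting subunit PPP1R3C (0.103). The ratio of means was 9.71 for ANKRD37 and 5.63 for BNIP3, and 5.61 for RAB20 and 3.74 for P4HA2. It was 3.25 for FAM162A and 4.69 for PPP1R3C. BHLHE41 had means of 0.667 and 2.08 RPKM, beside a ratio of 1.92 for FUT11. WSB1 and CCDC9B were alike in level too, with means of 25.9 and 43.9 against 22.2 and 37.2 RPKM. DEPP1 had no close match: its nearest gene, the lactate exporter SLC16A3, differed by 0.690.

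Genes lying next to the members were chosen by position alone and were tested. Of 70 annotated genes that overlap a member or lie within 50 kb of one, 21 were tested. In hypoxia 3 of them were raised (14.3%, beside 12.4% of all tested genes) and 6 lowered (28.6%, beside 24.4%), with a median log2 fold change of -0.10. Their shares are near those of all genes, and under median-of-ratios scaling 4 were raised and 3 lowered. Among the raised, ZNF22-AS1 passed the filter only through its hypoxic values.

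The raised neighbours lay at DEPP1 and SPAG4. RASSF4, a Ras-association domain protein (chromosome 10, 44959407 to 44995891), spans DEPP1 on the opposite strand. It stood at 2.34, 2.61 and 2.20 RPKM in normoxia and 6.43, 5.86 and 6.45 in hypoxia (log2 fold change 1.10, SE 0.09, limma adjusted p = 6.87e-06). RASSF4 and DEPP1 share 695 exonic bases, all of them in the retained-intron model RASSF4-211. The sources used here do not say if reads were assigned by strand. The main coding transcript RASSF4-201 shares no exonic base with DEPP1 and was at 1.42, 1.28 and 1.61 RPKM against 3.40, 3.68 and 3.68. FER1L4, a pseudogene with a long noncoding RNA (chromosome 20, 35558737 to 35607562), begins 8330 bases before SPAG4 on the opposite strand and shares no exon with it. FER1L4 rose from 3.12, 3.13 and 2.54 to 8.47, 6.21 and 8.10 RPKM (log2 fold change 1.12, SE 0.11, adjusted p = 5.64e-05). ZNF22-AS1, 18888 bases from DEPP1, rose from 0.984 ± 0.103 to 1.70 ± 0.126 (log2 fold change 0.45, adjusted p = 0.00446). Its normoxic libraries stood at 0.906, 0.946 and 1.10 RPKM, so it passed the filter only through its hypoxic values. Being tested at all thus depended on its rise, and its p-value carries little weight. ZNF22, the overlapping partner of ZNF22-AS1, was at 10.6 ± 0.606 and 9.89 ± 1.504 (adjusted p = 0.472).

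Among the lowered neighbours, the importin KPNA1, 9615 bases from FAM162A, fell from 29.1 ± 0.879 to 20.1 ± 1.25 RPKM (log2 fold change -0.52, adjusted p = 2.98e-04). TMEM183A, which ends 1650 bases before PPFIA4, fell from 26.5 ± 0.367 to 20.5 ± 1.02 (log2 fold change -0.35, adjusted p = 0.00203). COL4A2 beside RAB20 (log2 fold change -0.34), NFS1 (-0.24) and CPNE1 (-0.16) beside SPAG4 and CAMK2G (-0.23) beside FUT11 also passed. These 4 calls were lost without normoxia replicate 1, and those of NFS1, CPNE1 and CAMK2G with median-of-ratios scaling too. Of the other overlapping genes, UFSP2 at ANKRD37 (adjusted p = 0.261), WDR5B at FAM162A (0.354) and FBXO16 at ZNF395 (0.957) did not pass. They share 909, 3 and 2032 exonic bases with those members. The unnamed gene ENSG00000279689 overlaps FUT11 on the opposite strand (572 shared exonic bases) and was too weak for the test. It stood at 0.225, 0.123 and 0.228 RPKM in normoxia and 0.582, 0.608 and 0.394 in hypoxia. MIX23, whose start lies 945 bases from that of FAM162A on the other strand, was at 23.0 ± 2.99 and 21.9 ± 5.41 RPKM (adjusted p = 0.661). SEC24C, ending 130 bases before FUT11, was at 32.8 ± 0.575 and 31.3 ± 0.896 (adjusted p = 0.392). Chosen after its values were seen, C4orf47, 25621 bases from ANKRD37, was too weak for the test, at 0.183, 0.0999 and 0.275 RPKM in normoxia and 1.57, 1.08 and 0.960 in hypoxia.

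**Figure D4:**
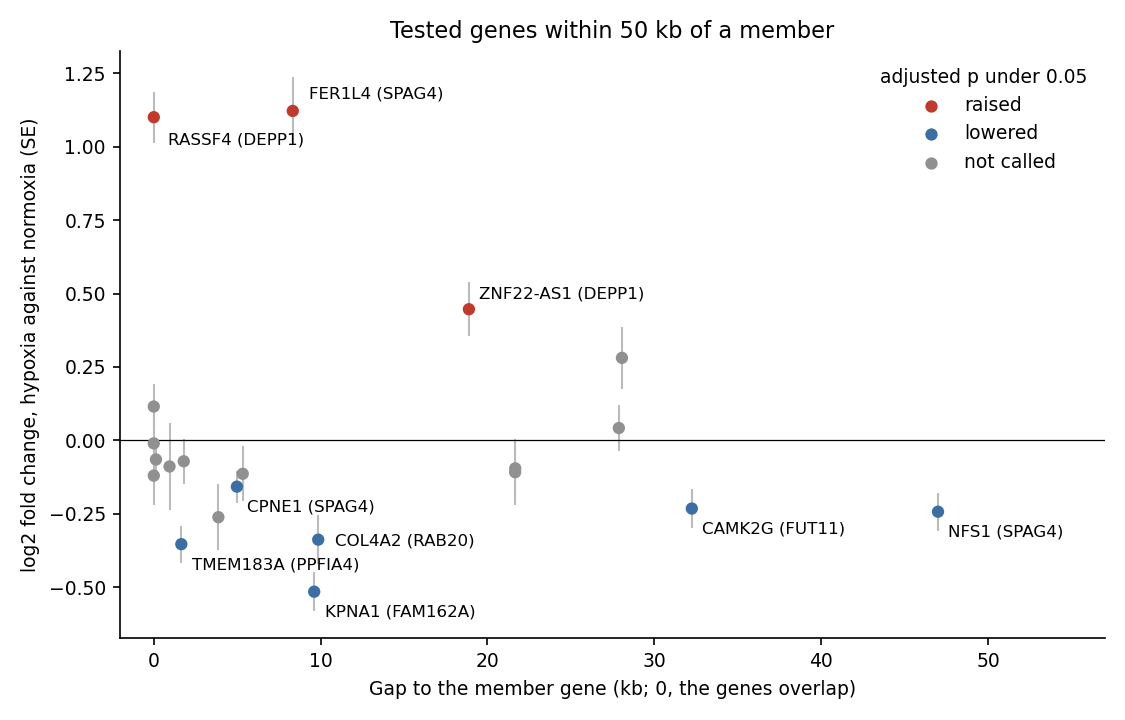
Log2 fold change with its SE (vertical axis) of the 21 tested neighbours against the gap to the member in kb (horizontal axis, 0 where the genes overlap); red, raised, blue, lowered, and grey, not called at an adjusted p under 0.05. RASSF4 at DEPP1 and FER1L4 at SPAG4 stand above 1 while the other neighbours lie between -0.52 and 0.45.

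Relatives and protein partners of the members were listed by family, with earlier results of these data known. Of 55 genes, 39 were tested: 3 were raised (7.69%) and 7 lowered (17.9%), with a median log2 fold change of -0.11, beside 12.4%, 24.4% and -0.085 for all genes. The balance depended on scaling, with 4 raised and 2 lowered under median-of-ratios scaling and 3 raised and 13 lowered with equal sums. The raised ones were PPFIA3, SUN1 and SOCS1. PPFIA3, a liprin like PPFIA4, rose from 12.7, 13.1 and 12.1 to 15.8, 17.2 and 18.7 RPKM (log2 fold change 0.42, SE 0.08, adjusted p = 0.00241). The ubiquitous liprin PPFIA1 fell from 24.0 ± 0.465 to 19.9 ± 1.18 (log2 fold change -0.26, adjusted p = 0.0120), which did not pass under median-of-ratios scaling or when normoxia replicate 1 or 2 was left out. The liprin-beta gene PPFIBP1 was at 12.01 ± 0.771 and 10.1 ± 1.23 (adjusted p = 0.0712), and passed with equal sums and without hypoxia replicate 3.

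SUN1, a nuclear envelope relative of SPAG4 that is expressed in most tissues, rose from 87.7, 83.0 and 81.6 to 116, 95.8 and 113 RPKM (log2 fold change 0.36, SE 0.07, adjusted p = 0.00463, lost with no filter on low values). Its paralog SUN2 was at 5.38 ± 0.909 and 7.24 ± 1.37 (adjusted p = 0.0533), and passed with median-of-ratios scaling. SOCS1, a cytokine signalling inhibitor with the same SOCS box as WSB1, rose from 3.17 ± 0.219 to 4.34 ± 0.474 (adjusted p = 0.0142, lost with no filter and without normoxia replicate 2). Around WSB1 the ligase scaffold CUL5 fell from 20.1, 19.1 and 19.4 to 16.8, 12.1 and 14.9 RPKM (log2 fold change -0.41, SE 0.10, adjusted p = 0.00988, lost with no filter). The adaptor ELOC fell from 32.1 ± 2.31 to 26.2 ± 0.770 (adjusted p = 0.00884, lost without normoxia replicate 3). The closest paralog WSB2 was at 44.9 ± 0.855 and 40.0 ± 2.41 (adjusted p = 0.0566). WSB2 passed with equal sums, with the 5 RPKM filter and without hypoxia replicate 3.

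Of 7 tested GTPases of the RAB5 branch, to which RAB20 belongs, 3 were lowered (42.9%, beside 24.4% of all tested genes): RAB5A (log2 fold change -0.33, adjusted p = 0.0358), RAB21 (-0.26, 0.0149) and RAB5C (-0.18, 0.0228). None of the 3 passed under median-of-ratios scaling or when normoxia replicate 1 was left out. RAB31 was at 27.9 ± 0.607 and 25.9 ± 2.30 RPKM (adjusted p = 0.265). Of 9 tested fucosyltransferases and genes of GDP-fucose supply, limma called none, beside 36.8% of all tested genes called in either direction. At an unadjusted p under 0.05 the counts were 0 raised and 1 lowered. FUT10, the paralog closest to FUT11, was at 4.98 ± 0.446 and 4.33 ± 0.649 (adjusted p = 0.212, passing with coding transcripts alone). POFUT1 passed as lowered with equal sums and without hypoxia replicate 3, and GFUS with equal sums. FEM1B, the ligase receptor reported to bind ANKRD37, fell from 12.4 ± 0.153 to 10.7 ± 0.814 (log2 fold change -0.20, adjusted p = 0.0491), which did not pass under median-of-ratios scaling or when any 1 library but hypoxia replicate 1 was left out. FOXO3, one of the factors reported to induce DEPP1, was at 3.02 ± 0.0563 and 3.60 ± 0.383 (adjusted p = 0.116), and passed without hypoxia replicate 2. SLC2A4RG, related to ZNF395, was at 97.8 ± 1.95 and 102 ± 8.32 (adjusted p = 0.470). TMEM45B and ZNF704 were too weak for the test, with means of 0.00599 and 0.957 RPKM in normoxia.

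**Figure D5:**
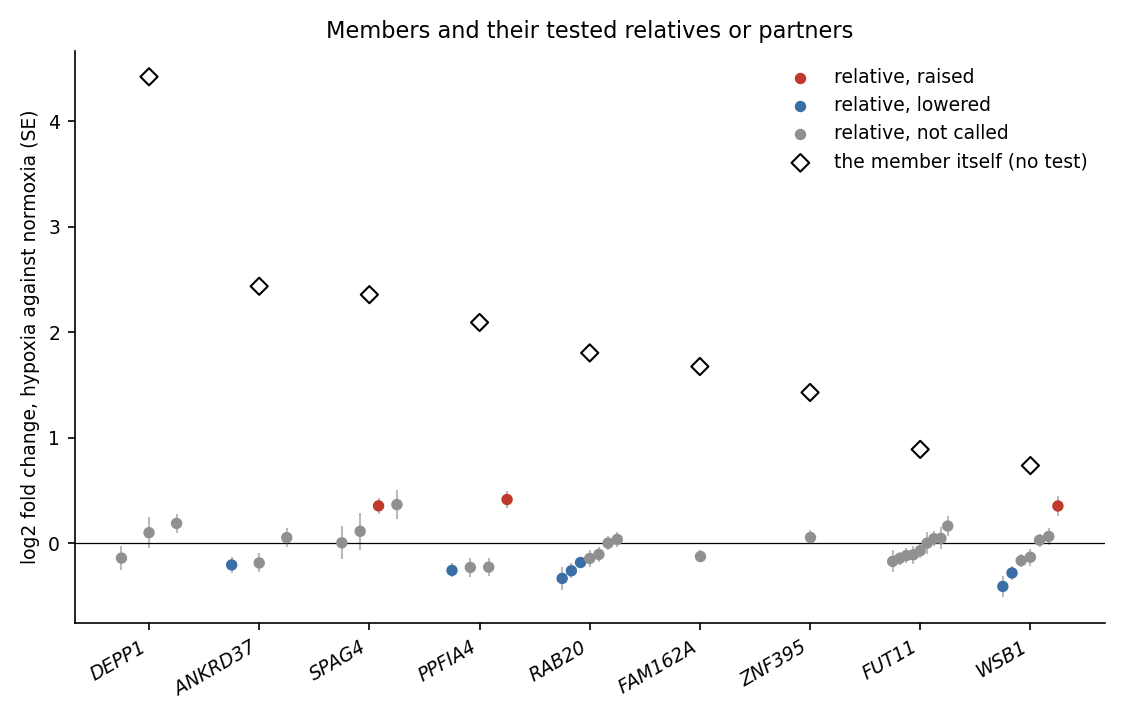
Log2 fold change with its SE (vertical axis) of tested relatives and partners (points), grouped by the member they belong to (horizontal axis), and of the member itself (open diamond, not tested); red, raised, blue, lowered, and grey, not called. Relatives lie between -0.41 and 0.42 and each below its member, which was chosen for a high value.

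Other genes of the hypoxia response were taken from a list drawn from general knowledge with earlier results of these data known. Of 42, 38 were tested: 36 were raised and 1 lowered, with a median log2 fold change of 1.27. The raised share of 94.7% stands beside 12.4% of all tested genes. Too weak for the test were RORA (normoxic and hypoxic means of 0.157 and 0.995 RPKM), EGLN3 (0.185 and 0.328), CA9 (0 and 0.0360) and VLDLR (0.0694 and 0.00490). The largest log2 fold changes were those of the mTORC1 inhibitor DDIT4 (3.02, adjusted p = 2.08e-09), the lipase inhibitor ANGPTL4 (2.93, 3.03e-09) and the glucose transporter SLC2A1 (2.88, 4.14e-09). At the lower end JMJD6 rose by 0.21 (adjusted p = 0.0172), a call lost without any 1 normoxic library, KLHL24 was at 3.34 ± 0.473 and 3.96 ± 0.555 RPKM (adjusted p = 0.185), and FAM13A fell from 5.61 ± 0.423 to 4.06 ± 0.182 (log2 fold change -0.39, adjusted p = 0.00562). FAM13A is named in several hypoxia signatures and was lower in all 3 hypoxic libraries than in any normoxic one.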

How the data were processed

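RNA of 6 SUM1315 libraries (3 per group) was sequenced from total RNA with a NEBNext Ultra kit, per the labels' protocols. The submitters' processing notes name Trimmomatic, HISAT2, SAMtools, Partek and GRCh38/hg38. Not given in the sources used here are the versions, annotation release and strand setting. Per Ensembl transcript the authors deposited an RPKM value, whose unit was inferred from the values. In genes with 1 listed transcript, 79.0% to 80.2% of low values lay within 0.1 of a whole multiple (up to 20) of 1 read. The size of 1 read was itself fitted to low values of these genes.

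Transcripts were joined to genes with GENCODE 29 (140023 matched, 84.4%; the other 25933 hold 3.43% to 3.67% of RPKM) and summed. Genes over 1 RPKM in at least 3 libraries (11889) were tested on log2(RPKM + 1) with limma 3.58.1 (trend, R 4.3.3), Benjamini-Hochberg adjusted p under 0.05 as the call. On simulated data for this comparison of 11889 genes, of 50 genes each 98% were called at a log2 change of 1 or -1, 78% at 0.5 and 70% at -0.5, with 3.37% of calls false. The simulation changed only those genes, as many up as down, with the same spread in both groups and no shift in scaling. The real data had far more calls and a wider hypoxic spread, and their calls moved with scaling. The simulated share of false calls is therefore not an error rate of the real ones. No pair of replicates agreed within sampling noise (mean chi-square per gene at least 6.69).

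The members and gene lists were chosen with earlier results of these data known. Named were the members, their transcripts, the nearest gene in pattern, neighbours within 50 kb, relatives that passed or are closest to a member, and the largest and smallest signature genes. MIX23, SEC24C, ZNF22, C4orf47, SOCS1, ELOC, RAB21 and RAB5C were added after their values were seen. Alternatives were 3 other scalings, filters of none and 5 RPKM, a pseudocount of 0.1, coding transcripts alone, a replicate block and leaving out each library. For the log2 fold changes of the members, estimated reads per gene were used as well.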

Additional observations from a re-analysis of the deposited data

How the results depend on the processing

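The number of lowered genes moved with the filter on low values, with scaling and with the normoxic libraries. With no filter every gene with any signal is tested, so those counts come from more genes. Over all genes, 2900 were lowered, against 1421 with median-of-ratios scaling, 1473 with upper-quartile scaling, 4221 after rescaling to equal sums and 1367 with no filter; the raised counts were 1479, 2022, 1957, 1183 and 1069. The median log2 fold change of all genes was -0.085, -0.011, -0.017 and -0.144 under the deposited and these 3 scalings. Leaving out 1 library gave 1523 to 2865 lowered and 1027 to 1611 raised genes. Lowered neighbours went from 6 to 3 with median-of-ratios or upper-quartile scaling and to 3 with no filter, and ranged from 2 to 7 without 1 library. Raised neighbours went from 3 to 5 with no filter and to 1 with coding transcripts alone, where FER1L4 and ZNF22-AS1 have no values by construction. Lowered relatives went from 7 to 2 with median-of-ratios or upper-quartile scaling, 13 with equal sums and 4 with no filter, and 2 to 8 without 1 library; raised relatives went from 3 to 1 with no filter and 2 to 5 without 1 library. Of the signature genes, 34 to 36 were raised in every alternative run in which they were counted.

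The median log2 fold change of the members, 1.89, was 1.96 with median-of-ratios or upper-quartile scaling, 1.84 with equal sums, 1.80 with the 5 RPKM filter, 2.23 with a pseudocount of 0.1, 1.60 with coding transcripts alone and 1.83 to 1.93 without 1 library. By estimated reads per gene the median was 1.91. The largest moves there were in WSB1 (0.61 against 0.74), SPAG4 (2.22 against 2.36) and ANKRD37 (2.58 against 2.44). The number of members with the same leading transcript in both groups was 8, and 6 to 8 without 1 library. The 5 RPKM filter dropped PPFIA4 and left the log2 fold changes of the other members unchanged. The cause of the other shifts was not tested. With coding transcripts alone, the added 1 also compresses the weaker sums of SPAG4 and PPFIA4 more. Deviations of same-numbered libraries correlated at 0.089, 0.030 and -0.227, and those of unlike-numbered libraries at -0.251 to 0.204. With 3 libraries per group, this cannot tell if same-numbered libraries were handled together. The fit with a replicate block called 1466 genes raised and 2663 lowered, 3 and 5 of the neighbours, 4 and 6 of the relatives and 36 and 1 of the signature genes. One read in a 2 kb transcript was worth 0.00983 to 0.0114 RPKM, which limits the normoxic values of ANKRD37 and PPFIA4 and their transcript shares.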
